A study of Mus with 48 samples.

Results

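The cerebellum of mice that ran on a treadmill after MPTP was compared with the cerebellum of mice that had MPTP alone, using the 8 cerebellum libraries labelled with these treatments out of the 48 RNA-seq libraries of the study. Both groups were female C57BL/6J mice, 8 weeks old when bought, that had 10 subcutaneous injections of MPTP at 25 mg/kg together with probenecid, a drug that slows the clearance of MPTP. MPTP is a toxin whose product is taken up by dopaminergic neurons, and it is used to model Parkinson's disease. The MPTP + EX mice (E26, E27, E28 and E29) then had 12 weeks of treadmill running, with sessions of 40 min at speeds of up to 15 m/min on 5 days of each week, and the MPTP mice (M6, M16, M21 and M23) did not run. A further group of 4 cerebellum libraries from saline mice (S1, S2, S3 and S4) entered the same fit, no group received exercise without MPTP, and the cortex, SN (substantia nigra) and striatum of the same mice made up the rest of the series.

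The cerebellum adjusts movement while it is being made. Its granule neurons, the most numerous neurons of the brain, drive Purkinje neurons, whose axons are the sole output of the cerebellar cortex, and Bergmann glia wrap the synapses between them. Nearly all brain cells, those of the cerebellum included, carry a circadian clock. In it, the activators Arntl and Clock switch on the Per and Cry genes, whose proteins then block the activators, and the same activators switch on output genes such as Dbp, Tef and Hlf, which pass the rhythm on to metabolism.

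The deposited values are FPKM, which scales the fragments of a gene by its length and by the size of the library. Genes were kept where their FPKM averaged more than 1 across the 8 libraries, which left 12929 genes, tested on log2(FPKM + 1), so a fold change of a weakly expressed gene is understated. The 3 cerebellum groups were fitted together with limma (a linear model that borrows the spread of a gene from genes at the same level, two-sided), with Benjamini-Hochberg adjustment over the 12929 genes. "Rose" and "fell" are kept for genes whose adjusted p was under 0.05. The study itself used an unadjusted threshold of 0.05, and counts past it are named as such. All log2 fold changes are MPTP + EX over MPTP unless another pair is named. The p-values measure the spread among 4 mice a group, since read counts are unknown and give no counting error.

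The libraries carried the markers of their label. Gabra6, a GABA receptor subunit of granule neurons, was at 176 to 241 FPKM in the 12 cerebellum libraries and at 0 to 37.1 FPKM in the other regions, and Pcp2, a Purkinje neuron gene, was at 855 to 1178 FPKM against 0.370 to 212 FPKM. The 8 libraries had 12811 to 13003 genes above 1 FPKM, and their relative depth, read from the steps between FPKM values, differed by 1.57-fold, with 0.662 to 1 in MPTP + EX and 0.635 to 0.917 in MPTP.

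Several libraries stood apart from the rest of their group in genes that are known from other tissue. The genes in this paragraph that are no list members were chosen after their values were seen. Tcf7l2, a transcription factor best known in the adult brain from the thalamus and midbrain, was at 10.4, 0.779, 6.60 and 1.07 FPKM in E26, E27, E28 and E29, against 8.50, 9.31, 8.97 and 9.43 FPKM in M6, M16, M21 and M23, and at 1.11, 1.11, 7.45 and 8.63 FPKM in S1 to S4. Mice E27 and E29 were thus low and the other MPTP + EX mice lay near the MPTP mice. The same order held for Slc17a6, a vesicular glutamate transporter (18.9, 3.45, 12.2 and 4.94 FPKM in MPTP + EX, against 14.4, 13.1, 12.1 and 15.4 FPKM in MPTP), and for Nrgn, a calmodulin-binding protein of forebrain neurons (79.8, 1.94, 48.1 and 8.29 FPKM, against 51.6, 67.2, 97.1 and 89.1 FPKM). Slc17a6 is also on the list of unipolar brush and nuclear neurons, which are neurons of the cerebellum itself. Mouse M16 held 1339 FPKM of Hba-a2, an alpha globin with near-identical copies, where the other 7 libraries held 107 to 293 FPKM, and 3.64 FPKM of Ttr, the main secreted protein of the choroid plexus, where they held 435 to 1146 FPKM. Saline mouse S2 was high in Hba-a2 (944 FPKM) and in Camk2a, a kinase abundant in forebrain neurons (153 FPKM, where the 8 libraries held 20.5 to 54.5 FPKM). Over the whole blood list, 5 of 10 members passed the filter, with summed levels of 286 to 384 FPKM in MPTP + EX and 179 to 1897 FPKM in MPTP, and over the choroid plexus and ependyma list 17 of 18 did, with 477 to 1042 FPKM in MPTP + EX and 33.3 to 1228 FPKM in MPTP. The main counts were therefore recomputed without E27 and E29, and without M16 and S2, both chosen after the data were seen. Beyond those values, the part of these differences in the results was not tested. Whether they came from other tissue or from parts of the cerebellum was not tested either.

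**Figure D1:**
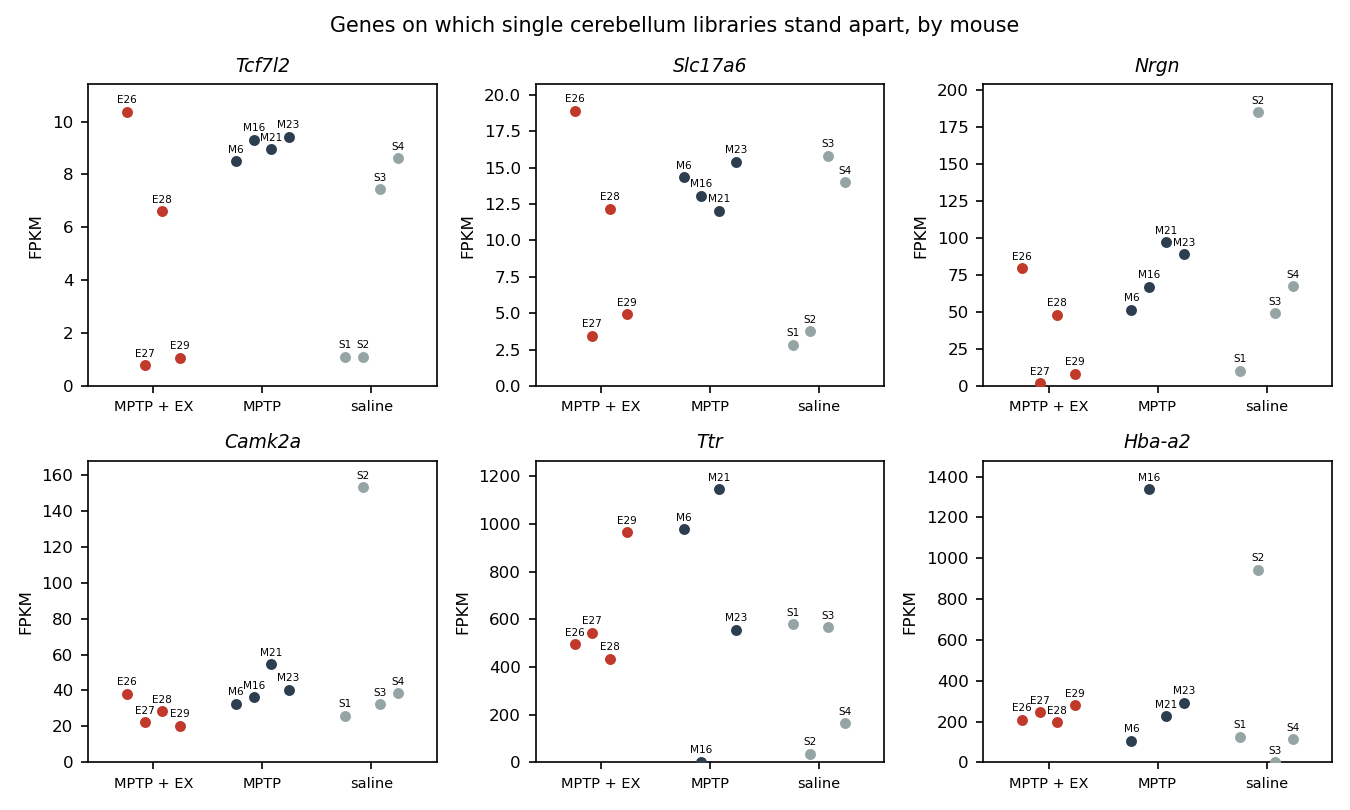
FPKM of 6 genes in each cerebellum library (vertical axis, linear, from 0) by group, each point labelled with its mouse. E27 and E29 are low in Tcf7l2, Slc17a6 and Nrgn beside E26, E28 and the 4 MPTP mice, S2 is high in Camk2a and Nrgn, and M16 and S2 are high in Hba-a2 and low in Ttr.

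Clock genes led the comparison. Dbp and Per2 fell after exercise, to 65.6% and 62.8% of the MPTP means, and these were the 2 genes of 12929 past adjustment (0.0155%). At an unadjusted p under 0.05 there were 746 genes (5.77%), of which 424 were higher (3.28%) and 322 lower (2.49%) in MPTP + EX. The FPKM of the 2 groups did not overlap for 469 genes (3.63%), 275 higher (2.13%) and 194 lower (1.5%). In a fit of MPTP + EX and MPTP alone, without the saline mice, no gene passed adjustment (lowest adjusted p = 0.0719 from limma) and 820 had an unadjusted p under 0.05. Leaving out mouse M21 also left no gene past adjustment (adjusted p = 0.0584 from limma for both Dbp and Per2), with 595 at the unadjusted threshold.

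Dbp, a transcription factor that carries the rhythm of the clock to its target genes, was at 41.3, 34.3, 34.2 and 44.4 FPKM in E26, E27, E28 and E29, against 62.3, 57.1, 58.5 and 57.5 FPKM in M6, M16, M21 and M23. Every MPTP + EX mouse was below every MPTP mouse, and the highest of them was 12.7 FPKM under the lowest MPTP mouse. The mean was 38.6 ± 5.12 FPKM in MPTP + EX and 58.8 ± 2.37 FPKM in MPTP (SD, n = 4 mice each). Its log2 fold change was -0.60 (95% interval -0.77 to -0.44, standard error 0.0749, adjusted p = 0.00862 from limma). The saline mice lay between the groups, at 48.2, 53.2, 52.1 and 51.0 FPKM. Without E27 and E29, the log2 fold change was -0.63 (adjusted p = 0.0286 from limma), and without M16 and S2 it was -0.62 (adjusted p = 0.0496).

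Per2, a repressor at the centre of the clock, was at 12.6, 10.4, 13.6 and 12.5 FPKM in the MPTP + EX mice, against 18.3, 21.4, 19.97 and 18.6 FPKM in the MPTP mice. Again the groups did not overlap. Its mean was 12.3 ± 1.35 FPKM in MPTP + EX and 19.6 ± 1.42 FPKM in MPTP (SD, n = 4 mice each). The log2 fold change was -0.63 (95% interval -0.80 to -0.47, standard error 0.0786, adjusted p = 0.00862 from limma). The saline mice, at 12.7 to 15.1 FPKM, overlapped the MPTP + EX mice and lay under all MPTP mice. Without E27 and E29 the log2 fold change of Per2 was -0.54 and no longer passed (adjusted p = 0.121 from limma).

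The gene with the next lowest p was Gm129, listed by RefSeq under the symbol Ciart, which encodes a repressor of the clock. It was at 9.28, 6.67, 9.36 and 8.74 FPKM in MPTP + EX, against 12.0, 14.7, 15.5 and 15.3 FPKM in MPTP, with no overlap between the groups (log2 fold change -0.70 with a standard error of 0.112, adjusted p = 0.0946 from limma). Its adjusted p was 0.0457 without mouse M6, 1 of 21 alternatives under which it passed.

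Of the 15 clock output genes, all of which passed the filter, 12 were lower on average in MPTP + EX (background 49%), 7 of them at an unadjusted p under 0.05 (background 2.49%), and 1 was higher at that threshold. Their median log2 fold change was -0.15, against 0.00 over all genes tested. Tef, a close relative of Dbp, was at 97.2, 80.3, 90.4 and 98.1 FPKM in MPTP + EX, against 105, 116, 109 and 105 FPKM in MPTP (log2 fold change -0.25, adjusted p = 0.66 from limma). Hlf, the remaining member of these PAR bZIP factors, was at 25.7, 22.0, 26.1 and 24.4 FPKM, against 28.6, 27.7, 28.8 and 28.1 FPKM (log2 fold change -0.20, adjusted p = 0.66). In both genes each MPTP + EX mouse was below each MPTP mouse. Por, which passes electrons to cytochrome P450 enzymes and is a target of these factors in liver, also had groups that did not overlap, 28.2 to 30.3 FPKM against 30.8 to 33.9 FPKM (log2 fold change -0.15). Nfil3, a repressor that competes with Dbp for its binding sites, was the member higher at an unadjusted p under 0.05, with 12.1, 11.2, 12.1 and 9.96 FPKM in MPTP + EX, against 8.35, 9.95, 11.6 and 7.85 FPKM in MPTP (log2 fold change 0.25, unadjusted p = 0.0465 from limma). Here M21 lay within the range of the MPTP + EX mice.

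Fmo2, an enzyme that oxidises foreign compounds, depended on 1 mouse. It was at 2.38, 1.061, 1.15 and 0.869 FPKM in E26 to E29, against 2.09 to 2.76 FPKM in MPTP (log2 fold change -0.57, adjusted p = 0.699 from limma). Mouse E26 was at the MPTP level and the other MPTP + EX mice were lower, and without E26 Fmo2 passed (log2 fold change -0.75, adjusted p = 0.0451).

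Of the 18 core clock genes, 17 passed the filter, and 13 of these were lower on average (49% of all genes). At an unadjusted p under 0.05, 4 were lower and 2 higher (2.49% and 3.28% of all genes), and the median log2 fold change was -0.11. Besides Per2, the lower members were Bhlhe41, a repressor of the Arntl and Clock pair, at 11.7, 9.81, 10.9 and 11.7 FPKM in MPTP + EX, against 12.4, 15.5, 13.5 and 14.4 FPKM in MPTP (log2 fold change -0.31, adjusted p = 0.66 from limma), Cry2, a partner of the Per proteins, at 43.3, 37.5, 38.5 and 43.4 FPKM, against 47.5, 47.6, 48.0 and 42.8 FPKM (log2 fold change -0.19), and Per1 (log2 fold change -0.20). The groups of Bhlhe41 did not overlap, while M23 lay among the MPTP + EX mice in Cry2. The activator Arntl (Bmal1) was at 12.3, 16.5, 15.5 and 11.9 FPKM in MPTP + EX, against 10.996, 11.1, 12.4 and 11.9 FPKM in MPTP (log2 fold change 0.24, unadjusted p = 0.0182 from limma), with E27 and E28 above all MPTP mice and E26 and E29 among them. Clock was at 14.1 to 17.1 FPKM, against 12.9 to 14.5 FPKM (log2 fold change 0.14, unadjusted p = 0.0834), and Npas2, its substitute in the forebrain, was at 0.952 to 1.07 FPKM, against 0.595 to 0.880 FPKM, under the filter and not tested. The repressors Per3 and Cry1 had log2 fold changes of -0.19 each, with unadjusted p = 0.0643 and 0.104 from limma. Nr1d1 (Rev-erb alpha), a repressor of Arntl, was at 75.8 to 86.9 FPKM, against 77.8 to 91.8 FPKM (log2 fold change -0.09, unadjusted p = 0.162).

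With E27 and E29 left out, 6 clock output genes and 4 core clock genes were lower at an unadjusted p under 0.05, where 2.08% of all genes were. Without M16 and S2 these counts were 7 and 4, where 2.67% of all genes were lower at that threshold. The lists were chosen with earlier results of these data known, so the counts describe the clock genes and are no independent test of them. The sources used here do not give the hour at which the mice of each group were killed.

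**Figure D2:**
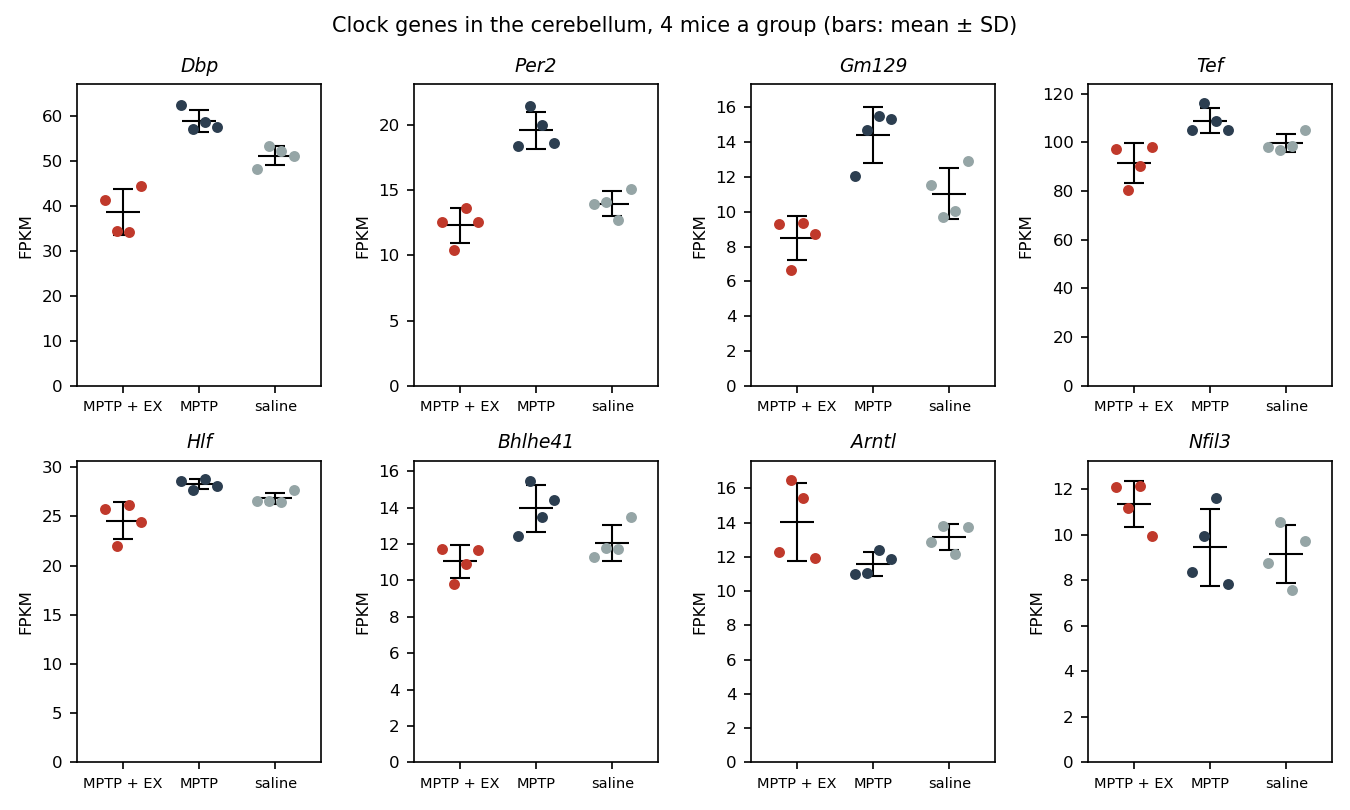
FPKM (vertical axis, linear, from 0) of 8 clock genes in the cerebellum of 4 MPTP + EX, 4 MPTP and 4 saline mice, with points for mice and bars for the mean ± SD. Dbp, Per2, Gm129, Tef, Hlf and Bhlhe41 have every MPTP + EX mouse below every MPTP mouse, while Arntl and Nfil3 have higher MPTP + EX means and groups that overlap.

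Fabp7, a fatty acid carrier of radial glia, Bergmann glia and astrocytes, had the lowest p of the genes higher on average after exercise. It was at 24.1, 39.7, 28.3 and 31.7 FPKM in E26, E27, E28 and E29, against 16.6, 18.1, 15.1 and 19.4 FPKM in M6, M16, M21 and M23. The lowest MPTP + EX mouse was above the highest MPTP mouse. The means were 30.9 ± 6.58 FPKM in MPTP + EX and 17.3 ± 1.82 FPKM in MPTP (SD, n = 4 mice each), 1.79 times the MPTP level, with a log2 fold change of 0.79 (standard error 0.134, 95% interval 0.50 to 1.08), which did not pass adjustment (adjusted p = 0.14 from limma). It passed under 1 of 21 alternatives, without E26 (log2 fold change 0.89, adjusted p = 0.0384), and without E27 and E29 the log2 fold change was 0.57 (adjusted p = 0.999). The saline mice were at 19.6 to 27.1 FPKM.

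Of 25 members of the list of Bergmann glia and astrocytes that passed the filter, 10 were higher and 15 lower on average, with 1 higher (Fabp7) and 4 lower at an unadjusted p under 0.05 (3.28% and 2.49% of all genes), and a median log2 fold change of -0.05. Under quantile normalization 12 were higher and 13 lower on average, with the same counts of 1 and 4. Gdf10, a secreted factor that marks Bergmann glia, was at 69.2, 79.5, 70.1 and 76.5 FPKM in MPTP + EX, against 81.4, 81.8, 94.5 and 89.2 FPKM in MPTP (log2 fold change -0.23, adjusted p = 0.736 from limma). Aldh1l1, a folate enzyme used as an astrocyte marker, was at 20.3 to 23.1 FPKM, against 23.1 to 25.7 FPKM (log2 fold change -0.18), and neither gene had groups that overlapped. Glul, which turns glutamate into glutamine, was at 431, 345, 401 and 356 FPKM, against 394, 413, 491 and 506 FPKM (log2 fold change -0.23), and Fgfr3, a growth factor receptor, at 23.5 to 28.8 FPKM, against 27.1 to 30.0 FPKM (log2 fold change -0.16). Gfap, the filament protein of reactive astrocytes, was at 52.2 to 66.8 FPKM, against 63.1 to 71.7 FPKM (unadjusted p = 0.0695 from limma). In bulk tissue, fewer cells of a type and less RNA per cell cannot be told apart. The counts of 1 higher and 4 lower held when E27 and E29 were left out (1.68% and 2.08% of all genes), and 3 were lower when M16 and S2 were (2.67%).

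Fabp5, the related carrier of other brain cells, was at 28.8, 25.4, 27.95 and 30.3 FPKM in MPTP + EX, against 31.8, 32.3, 30.9 and 31.2 FPKM in MPTP, below in every mouse (log2 fold change -0.16, adjusted p = 0.805 from limma). Over all genes, 3.28% were higher and 2.49% lower at an unadjusted p under 0.05. In the list of fatty acid and cholesterol genes, 28 members passed the filter. Of these, Fabp7 was higher and 3 were lower at an unadjusted p under 0.05, which were Fabp5, Srebf2, the factor that switches on cholesterol synthesis (32.2 to 36.5 FPKM, against 34.9 to 39.8 FPKM), and Fasn, which makes fatty acids (24.3 to 26.7 FPKM, against 27.02 to 29.6 FPKM). No member was lower at that threshold when E27 and E29, or M16 and S2, were left out.

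Other cell types of the cerebellum gave few members past an unadjusted p of 0.05, where 3.28% of all genes were higher and 2.49% lower. Oligodendrocytes, which make myelin, had 1 of 24 higher, Trf, the iron carrier, at 202, 183, 183 and 176 FPKM, against 164, 161, 166 and 176 FPKM (log2 fold change 0.16, unadjusted p = 0.0157 from limma). Microglia had 1 of 20 lower, Tmem119, a marker of resident microglia, at 2.91 to 3.98 FPKM, against 4.05 to 5.03 FPKM (log2 fold change -0.29). Vessel cells had 1 higher and 1 lower of 24. Cldn5, which seals the vessels of the brain, was at 12.4, 21.5, 23.9 and 12.98 FPKM in MPTP + EX, against 11.9, 11.8, 13.7 and 11.6 FPKM in MPTP, with E27 and E28 above all MPTP mice and E26 and E29 among them (log2 fold change 0.45, and 0.29 without E28). The lower one was Itm2a, a membrane protein of vessel cells (18.5 to 21.7 FPKM, against 19.98 to 23.2 FPKM). Of 20 members of meninges and collagens, Col4a1, a chain of basement membrane collagen, was the 1 past that threshold, at 3.41 to 3.88 FPKM, against 2.34 to 3.23 FPKM (log2 fold change 0.29). With E27 and E29 left out, 2 oligodendrocyte, 1 vessel and 1 meninges and collagens gene were higher at that threshold (1.68% of all genes). No gene of these lists, microglia included, was lower at it (2.08% of all genes). On average 18 of 24 oligodendrocyte genes were then higher, where 11 were with all mice.

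Among the neurons, 15 of 19 granule neuron genes were higher on average and 4 lower (51% of all genes were higher), with 3 higher at an unadjusted p under 0.05 (3.28% of all genes) and a median log2 fold change of 0.05. Grin2c, the NMDA receptor subunit of mature granule neurons, was at 109.9, 119, 99.9 and 119.5 FPKM in MPTP + EX, against 89.1, 113, 89.0 and 90.5 FPKM in MPTP (log2 fold change 0.23, adjusted p = 0.759 from limma). Mouse M16 lay within the MPTP + EX range and the other MPTP mice below it. Grm4, a metabotropic glutamate receptor on granule neuron axons, was at 108 to 134 FPKM, against 95.3 to 116 FPKM (log2 fold change 0.17, and 0.11 without E27), and Cdh15, a cadherin of granule neurons, at 19.7 to 25.96 FPKM, against 17.8 to 19.8 FPKM (log2 fold change 0.20, and 0.11 without E27). Grin2c and Grm4 were also the 2 of 24 glutamate receptor genes at that threshold. Gabrd, the GABA receptor subunit of the tonic inhibition of granule neurons, is not on the granule neuron list. It was at 85.7, 99.4, 96.6 and 97.7 FPKM, against 79.5, 80.3, 86.3 and 81.8 FPKM (log2 fold change 0.21, unadjusted p = 0.00779 from limma). It was the 1 of 15 GABA-A and glycine receptor genes at that threshold, and of these 6 were higher and 9 lower on average. Gabra6 itself was at 204 to 241 FPKM, against 203 to 217 FPKM (unadjusted p = 0.175). When E27 and E29 were left out, none of the granule neuron genes was at an unadjusted p under 0.05, and 10 of 19 were higher on average.

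Of 24 Purkinje neuron genes, 9 were higher and 15 lower on average, a split that was 16 and 8 under quantile normalization and 3 and 21 when E27 and E29 were left out. At an unadjusted p under 0.05, 2 were lower (2.49% of all genes). These were Stmn4, a regulator of microtubules (51.9 to 65.4 FPKM, against 64.0 to 74.6 FPKM), and Foxp2, a transcription factor of Purkinje and other neurons (2.21, 1.28, 1.81 and 1.28 FPKM, against 2.48, 2.24, 2.20 and 2.36 FPKM), in which E27 and E29 were the lowest. Pcp2 was at 997 ± 97.0 FPKM in MPTP + EX and 1030.0 ± 125 FPKM in MPTP (SD, n = 4 mice each, log2 fold change -0.04, 95% interval -0.27 to 0.18). None of 18 genes of cerebellar interneurons, and none of 9 oligodendrocyte precursor genes, was at an unadjusted p under 0.05.

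Beyond the clock and Fabp7, the rule for named genes took those with the lowest p among genes whose groups did not overlap, and none of the genes in this and the next paragraph passed adjustment with all libraries in the fit (adjusted p of 0.633 or 0.66 from limma). On the higher side was Cntn6, an adhesion protein of the contactin family that takes part in the wiring of granule and Purkinje neurons, at 17.2, 19.7, 20.2 and 18.7 FPKM, against 15.98, 14.7, 14.2 and 13.4 FPKM (log2 fold change 0.35, standard error 0.0747). Adamts10, a secreted protease of the extracellular matrix, was at 55.2, 56.5, 54.8 and 58.9 FPKM, against 46.5, 53.2, 43.4 and 45.3 FPKM (log2 fold change 0.26). Mouse M16 was the MPTP mouse nearest to the MPTP + EX mice, and without it Adamts10 passed (adjusted p = 0.0351). Gjc3, a connexin of myelinating glia, was at 25.2 to 28.1 FPKM, against 19.4 to 23.7 FPKM (log2 fold change 0.30), Irf3, a factor of the antiviral response, at 20.5 to 22.3 FPKM, against 17.4 to 19.3 FPKM (log2 fold change 0.23), and Pet100, which helps to assemble cytochrome c oxidase, at 22.3 to 26.04 FPKM, against 18.9 to 21.5 FPKM (log2 fold change 0.26). Eml1, a microtubule protein, was at 21.9 to 23.2 FPKM, against 19.4 to 20.1 FPKM (log2 fold change 0.17). The same rule named Tatdn3, Nktr and Zfp692, with log2 fold changes of 0.25, 0.25 and 0.20. Airn, a noncoding RNA that runs antisense to Igf2r, was at 13.3 to 14.7 FPKM, against 8.11 to 11.4 FPKM, and since the use of strand is not given its reads cannot be told apart from those of Igf2r.

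On the lower side, Mthfd1l, a mitochondrial enzyme of folate metabolism, had tight groups, 5.56, 5.69, 5.12 and 5.87 FPKM in MPTP + EX, against 7.69, 7.99, 7.52 and 7.79 FPKM in MPTP (log2 fold change -0.42, standard error 0.0913). Slc39a14, a zinc and manganese carrier, was at 5.58, 8.19, 5.38 and 6.12 FPKM, against 8.98, 8.53, 9.75 and 8.45 FPKM (log2 fold change -0.45). Here E27 was close to the MPTP mice, and without it Slc39a14 passed (adjusted p = 0.0483). Txnip, which binds thioredoxin and limits glucose uptake, was at 14.2, 6.64, 11.4 and 13.1 FPKM, against 16.5, 21.7, 18.4 and 18.9 FPKM (log2 fold change -0.73). The saline mice, at 6.41 to 10.5 FPKM, were below all MPTP mice. Arhgap27, which turns off small GTPases, was at 6.18 to 7.06 FPKM, against 7.94 to 8.58 FPKM (log2 fold change -0.28), and Gstt2, a glutathione transferase, at 2.18 to 2.44 FPKM, against 3.03 to 3.67 FPKM (log2 fold change -0.40). Ifitm1, an interferon-induced membrane protein with close paralogs whose reads may be shared, was at 0.897 to 2.31 FPKM, against 2.75 to 4.13 FPKM (log2 fold change -0.94). Nupr1l, at 0.222 to 1.20 FPKM, against 1.57 to 2.64 FPKM, was close to the filter (log2 fold change -0.87).

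**Figure D3:**
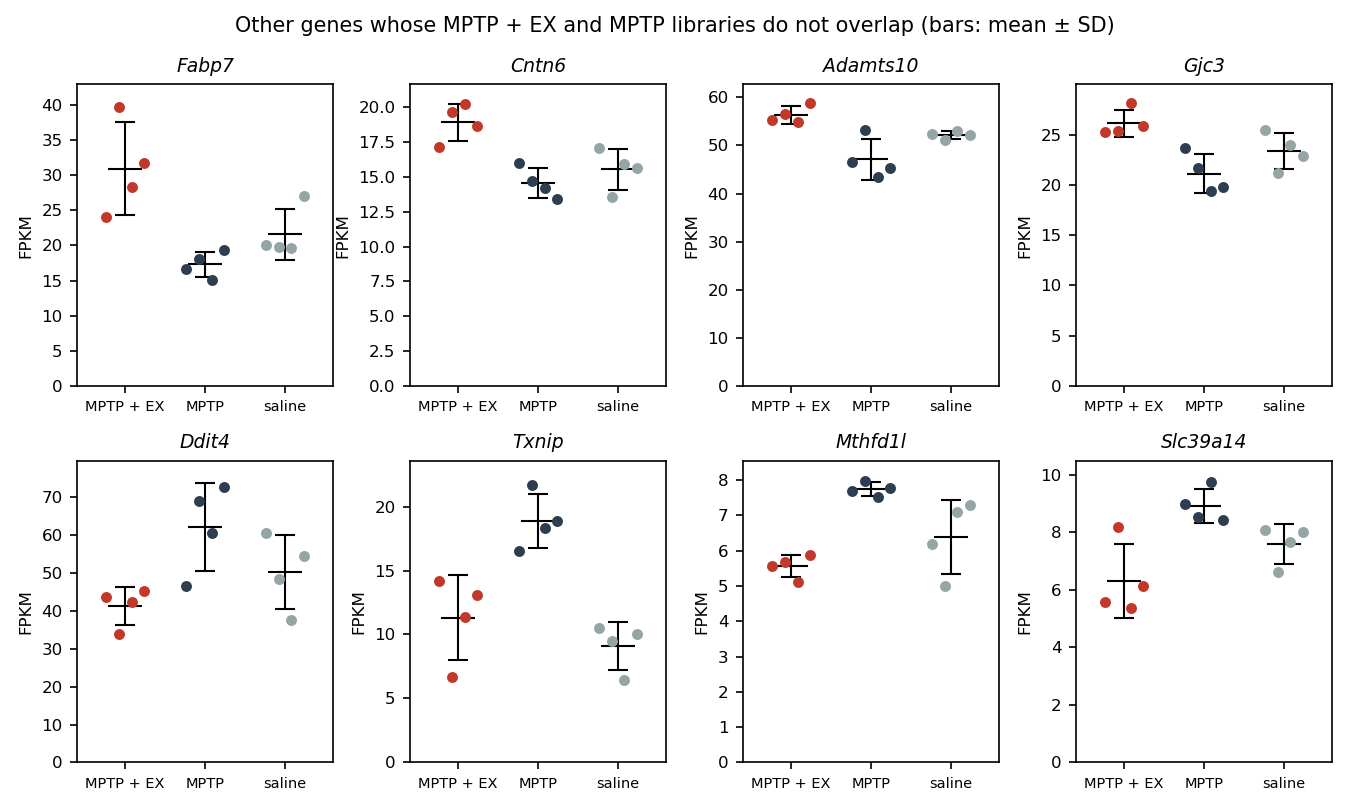
FPKM (vertical axis, linear, from 0) in the cerebellum of 4 MPTP + EX, 4 MPTP and 4 saline mice for 8 genes whose MPTP + EX and MPTP mice do not overlap, with points for mice and bars for the mean ± SD. Fabp7, Cntn6, Adamts10 and Gjc3 are higher and Ddit4, Txnip, Mthfd1l and Slc39a14 lower in MPTP + EX, and none of them passed adjustment over 12929 genes.

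Glucocorticoids, the stress hormones of the adrenal gland, act on gene expression through a nuclear receptor. Of 19 of their targets tested, 15 were lower on average after exercise (49% of all genes), 4 of them at an unadjusted p under 0.05 (2.49% of all genes) and none higher, with a median log2 fold change of -0.07. Ddit4, which restrains mTOR under stress, was at 43.6, 33.8, 42.4 and 45.2 FPKM in MPTP + EX, against 46.6, 68.9, 60.5 and 72.8 FPKM in MPTP, with no overlap (log2 fold change -0.57, adjusted p = 0.66 from limma). Sgk1, a kinase that regulates ion channels, was at 62.9, 23.9, 42.9 and 55.5 FPKM, against 58.0, 61.8, 64.5 and 65.8 FPKM (log2 fold change -0.51), with E26 among the MPTP mice and E27 far below, and without E27 the log2 fold change was -0.23. Tsc22d3 (Gilz), an anti-inflammatory target, was at 50.1 to 66.2 FPKM, against 58.2 to 79.8 FPKM (log2 fold change -0.25), and Per1, also on this list, is given above. Both were already counted among the lower clock genes above, Tsc22d3 in the clock output list and Per1 in the core clock list. Leaving out E27 and E29, 1 of the targets was lower at that threshold (2.08% of all genes), and without M16 and S2 there were 2 (2.67%).

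The immediate early genes, which neurons switch on within minutes of activity, had 14 of 21 members higher on average (51% of all genes) and a median log2 fold change of 0.17, with 2 higher and 1 lower at an unadjusted p under 0.05 (3.28% and 2.49% of all genes). Fos was at 27.8, 23.1, 21.7 and 29.4 FPKM in MPTP + EX, against 23.1, 19.4, 20.6 and 9.07 FPKM in MPTP (log2 fold change 0.54, adjusted p = 0.805 from limma). Mouse M23 was the lowest by far, without it the log2 fold change was 0.26, and the saline mice were at 8.33 to 12.1 FPKM. Ier2 was at 9.94 to 15.6 FPKM, against 8.06 to 11.2 FPKM (log2 fold change 0.34). Jun, the partner of Fos, lay the other way, at 24.6, 28.1, 26.3 and 29.6 FPKM, against 33.4, 32.6, 32.1 and 30.0 FPKM, below in every mouse (log2 fold change -0.23, adjusted p = 0.699). Npas4 and Nr4a1, which follow neuronal activity closely, had log2 fold changes of 0.33 and 0.42 (unadjusted p = 0.0817 and 0.0848). In the fit that left out E27 and E29, none was higher and 1 was lower at that threshold (1.68% and 2.08% of all genes).

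In the lists of energy supply and protein turnover, few members were at an unadjusted p under 0.05. Over all genes, 49% were lower on average, and 2.49% were lower and 3.28% higher at that threshold. Among the 37 tested subunits of complex I, where electrons enter the respiratory chain, 27 were lower on average, 2 of them at an unadjusted p under 0.05 and none higher, with a median log2 fold change of -0.04. Ndufb10 was at 153, 149.6, 154 and 168 FPKM in MPTP + EX, against 152, 169, 179 and 208 FPKM in MPTP (log2 fold change -0.17, and -0.091 without M23), and Ndufs3 at 78.0 to 81.8 FPKM, against 81.7 to 90.8 FPKM (log2 fold change -0.09). Of 39 subunits of complexes II to V, 26 were lower on average (20 under quantile normalization), and 2 at that threshold, Sdha of complex II (173 to 181 FPKM, against 181 to 197 FPKM) and Atpif1, an inhibitor of the ATP synthase (123 to 139 FPKM, against 135 to 158 FPKM). Cytosolic ribosomal proteins had 37 of 52 lower on average (median -0.03, and 29 lower under quantile normalization), with 3 lower (Rpl6 and Rpl3 among them) and 1 higher (Rpl22) at that threshold. Of 28 genes of glycolysis and lactate transport, 1 was lower, Pfkl, a subunit of phosphofructokinase (31.2 to 33.7 FPKM, against 35.1 to 39.1 FPKM), of 31 genes of the proteasome and ubiquitin 1 was lower, Psmc4 (56.7 to 60.05 FPKM, against 60.9 to 65.1 FPKM), and of 31 heat shock proteins and chaperones, 23 of them lower on average, none was at that threshold, and 21 of these 31 were higher on average when E27 and E29 were left out. None of 24 exercise regulators reached it either. With E27 and E29 left out, 2 complex I subunits, 2 exercise regulators (8.33%) and 1 proteasome and ubiquitin gene were lower at that threshold, where 2.08% of all genes were. No subunit of complexes II to V, ribosomal protein or glycolysis gene was. Bdnf, the neurotrophin best known to follow running in the hippocampus, was at 4.66, 4.26, 5.24 and 4.24 FPKM, against 4.42, 3.77, 4.81 and 3.26 FPKM (log2 fold change 0.15, 95% interval -0.10 to 0.40).

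Among genes of synapses and wiring, 2 of 36 genes of synaptic vesicle release were higher at an unadjusted p under 0.05 (3.28% of all genes) and none lower. With E27 and E29 left out, none was higher or lower at that threshold, and without M16 and S2, 1 was higher and 2 lower (4% and 2.67% of all genes). Unc13a, which primes vesicles for release, was at 44.6, 48.5, 47.7 and 47.7 FPKM, against 38.3, 44.2, 41.2 and 43.4 FPKM (log2 fold change 0.17), and Pclo, a scaffold of the active zone, at 26.1 to 30.5 FPKM, against 23.1 to 28.1 FPKM (log2 fold change 0.17). None of 46 synapse adhesion and scaffold genes was at that threshold, and 1 of 46 axon guidance genes was, Plxna2, a semaphorin receptor, at 8.19 to 9.07 FPKM, against 9.25 to 9.91 FPKM (log2 fold change -0.12). On average, 32 and 30 members of these lists were lower (49% of all genes), and 25 and 27 without E27 and E29. Of 37 growth factors and neurotrophins, 3 were lower and 1 higher at that threshold (2.49% and 3.28% of all genes). Without E27 and E29, 1 was lower and none higher (2.08% and 1.68% of all genes). Nrtn, a GDNF-family ligand, was at 3.92, 3.41, 2.68 and 3.73 FPKM, against 4.92, 4.69, 5.33 and 4.19 FPKM, below in every mouse (log2 fold change -0.39, adjusted p = 0.699 from limma). The other lower members were Nrg3, a ligand of the ErbB4 receptor, at 2.38 to 3.02 FPKM, against 3.19 to 3.81 FPKM, and Mdk (midkine), at 41.4 to 45.0 FPKM, against 41.3 to 56.0 FPKM, and the higher one was Fgf1, at 47.2 to 50.5 FPKM, against 41.6 to 48.3 FPKM.

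Of the many genes that the study names, Th, Neurod2, Skor2, Cd5 and Rtn4rl2 were looked up here as well. None of those tested was at an unadjusted p under 0.05. The study names Neurod2, Cd5 and Rtn4rl2 for the SN and striatum, not for the cerebellum. It names Skor2 among the most connected genes of a co-expression module that it relates to exercise in the SN. For TH protein, it reports stronger staining in the striatum after exercise and no matching change in the cerebellum. Th, which makes the precursor of dopamine, was at 4.79, 6.11, 9.07 and 5.63 FPKM in MPTP + EX, against 7.38, 6.21, 7.60 and 6.50 FPKM in MPTP (log2 fold change -0.13, 95% interval -0.45 to 0.20). Neurod2, a transcription factor of granule and forebrain neurons, was at 61.4 to 76.7 FPKM, against 59.8 to 66.3 FPKM (log2 fold change 0.11, 95% interval -0.03 to 0.25), with E27 and E29 the highest, and Skor2, a repressor of Purkinje neurons, at 6.21 to 8.23 FPKM, against 6.69 to 8.47 FPKM (log2 fold change -0.07, 95% interval -0.27 to 0.12). Cd5 and Rtn4rl2 were at or under 0.572 FPKM in MPTP + EX and at or under 0.917 FPKM in MPTP and did not pass the filter. Interferon and MHC class I genes had 2 of 16 lower at an unadjusted p under 0.05 (2.49% of all genes). Psmb8, a subunit of the immunoproteasome, was at 1.41 to 1.79 FPKM, against 2.17 to 3.18 FPKM (log2 fold change -0.42), and Psmb9, its partner, at 0.694 to 1.71 FPKM, against 1.40 to 1.87 FPKM (log2 fold change -0.34).

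**Figure D4:**
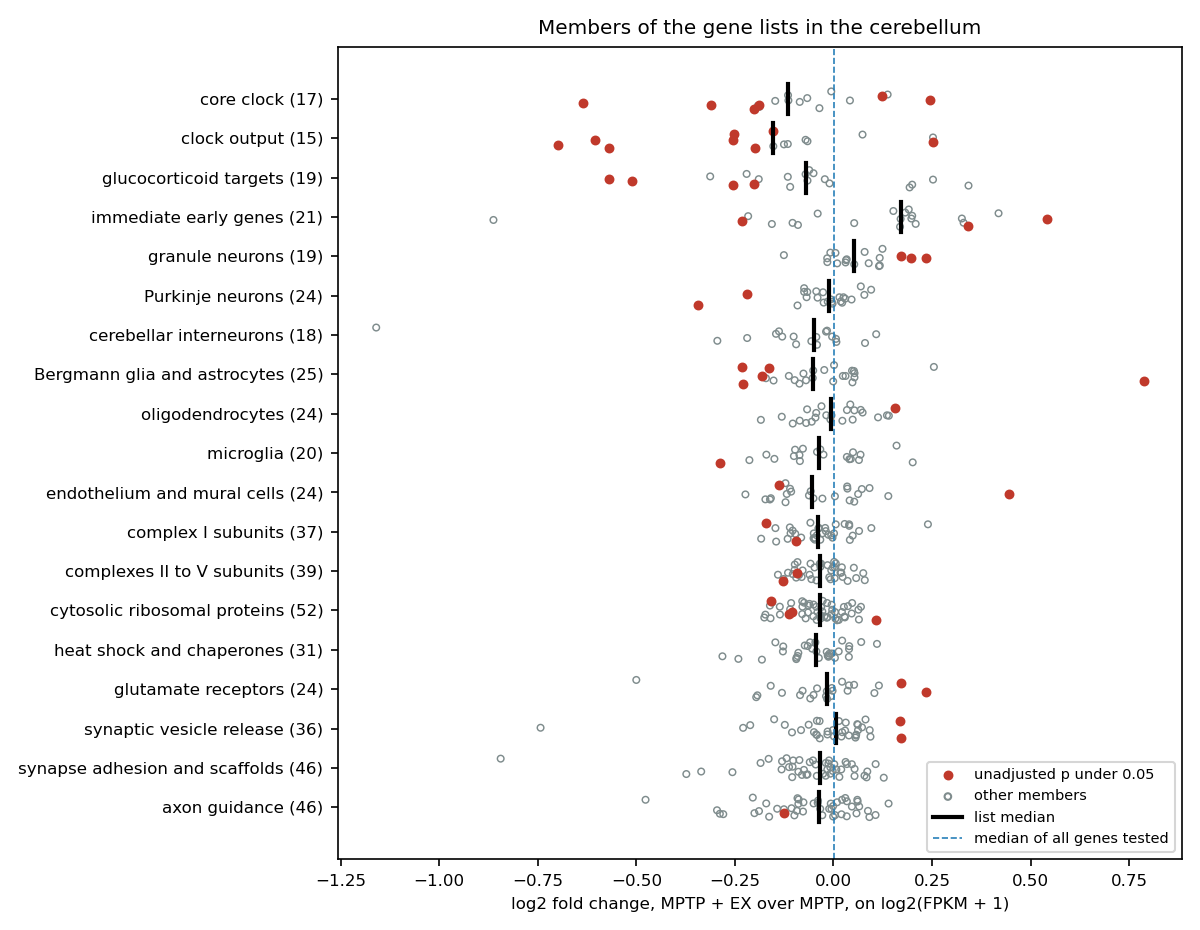
Log2 fold change of MPTP + EX over MPTP on log2(FPKM + 1) (horizontal axis) for the tested members of 19 gene lists, with the number tested in brackets, filled red points for members at an unadjusted p under 0.05, black bars for list medians and a dashed line for the median of all genes tested. The clock lists have medians of -0.11 and -0.15, the immediate early genes 0.17, and the other 16 lists -0.07 to 0.05.

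Saline mice place these levels beside a state without toxin, although both contrasts share libraries with the comparison above and are no independent test of it. No gene passed adjustment between MPTP and saline (1531 at an unadjusted p under 0.05, 11.8%, lowest adjusted p = 0.166 from limma) or between MPTP + EX and saline (2183, 16.9%, lowest adjusted p = 0.128). Without saline mouse S1, 66 genes passed between MPTP + EX and saline, without S2 none did, and without M16 or without M23 1 did. Between MPTP and saline, 1 gene passed without E26 or without E27, which share the estimate of spread. For MPTP over saline, the log2 fold change was 0.20 for Dbp, 0.46 for Per2, 0.36 for Gm129 and -0.30 for Fabp7. For MPTP + EX over saline, it was -0.41 for Dbp, -0.17 for Per2, -0.34 for Gm129 and 0.49 for Fabp7. The Dbp levels of the MPTP + EX and saline mice did not overlap, while those of Per2 did. Grm4 was at 119 ± 11.9 FPKM in MPTP + EX, 106 ± 8.57 FPKM in MPTP and 141 ± 5.59 FPKM in saline (SD, n = 4 mice each). Fos was at 25.5 ± 3.69, 18.04 ± 6.17 and 10.5 ± 1.86 FPKM in the same order of groups.

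The response in the cerebellum was then set against that of the other regions of the same mice, by the difference in log2(FPKM + 1) between the regions within each mouse. No gene differed past adjustment. Between the cerebellum and cortex 696 of 12307 genes were at an unadjusted p under 0.05 (5.66%), between the cerebellum and SN 708 of 12583 (5.63%), and between the cerebellum and striatum 514 of 12402 (4.14%). The lowest p against the cortex was that of Slc39a14, with a difference of -0.69 between a log2 fold change of -0.45 in the cerebellum and 0.23 in the cortex (adjusted p = 0.85 from limma). Against the SN it was Slc8a2, a sodium and calcium exchanger, with 0.87 between 0.04 in the cerebellum and -0.83 in the SN (adjusted p = 0.491). Against the striatum it was the microRNA gene Mir369, with 1.19 between 0.43 and -0.75 (adjusted p = 0.543). The striatum library of mouse E29 stands apart from the others (Dbp at 259 FPKM, where the other MPTP + EX mice had 65.9 to 81.5 FPKM). Without this mouse 946 genes were at an unadjusted p under 0.05 against the striatum, again with none past adjustment. The higher count was not particular to E29, since leaving out E26, E27 or E28 instead gave 950, 912 and 1095 genes. Leaving out 1 MPTP or saline mouse gave 240 to 415.

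Dbp had log2 fold changes of -0.60 in the cerebellum, -0.57 in the cortex, -0.57 in the SN and -0.31 in the striatum. In the striatum its 95% interval ran over 0 (-1.07 to 0.45), and without E29 the value there was -0.76 (-0.97 to -0.55). The cerebellum differed from the cortex by -0.04 (95% interval -0.22 to 0.15) and from the SN by -0.03 (-0.30 to 0.24). Per2 had -0.63 in the cerebellum, -0.37 in the cortex, -0.47 in the SN and -1.04 in the striatum (-0.57 without E29). Its difference of -0.26 from the cortex was at an unadjusted p = 0.0134 and did not pass (adjusted p = 0.85 from limma). Gm129 differed most from the SN, by -0.36 (-0.66 to -0.06, adjusted p = 0.841), with -0.70 in the cerebellum and -0.34 in the SN. Fabp7 had 0.79, 0.60, 0.69 and 0.54 in the cerebellum, cortex, SN and striatum, and differed from the cortex by 0.19 (-0.26 to 0.64) and from the SN by 0.10 (-0.23 to 0.43). Since the same mice gave all regions, these 4 values are not independent of each other.

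**Figure D5:**
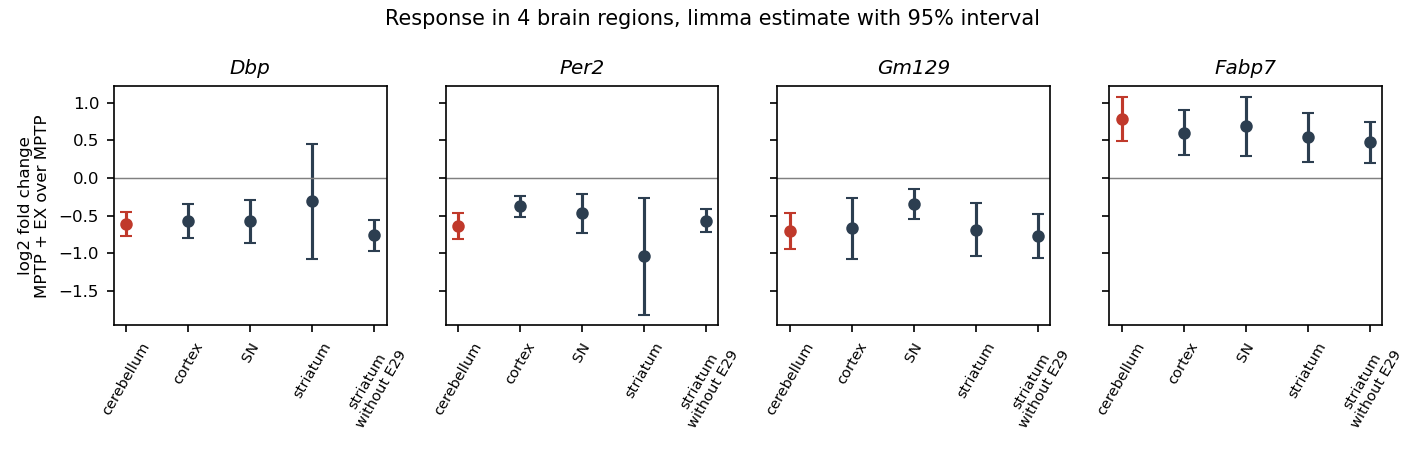
Log2 fold change of MPTP + EX over MPTP (vertical axis) in 4 brain regions for Dbp, Per2, Gm129 and Fabp7, as limma estimates with 95% intervals from 4 mice a group, and for the striatum also without mouse E29. Dbp, Per2 and Gm129 are below 0 and Fabp7 is above 0 in each region, with the interval for Dbp in the striatum reaching over 0 when E29 is included.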

How the data were processed

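Brain tissue was micro-dissected, and a single table of FPKM, deposited by the authors, holds 48 libraries and 23366 gene names. According to the paper, Tophat2, Cufflinks and RSEM were run, and DESeq tested the genes, while HISAT2 2.1, HTSeq 0.11 and the build mm9 stand in the submitters' processing notes. The sources used here do not say which tools gave the FPKM. Columns were taken to their groups from the letter and region in their names, with the recurring start of the name taken as the mouse. Gene names garbled into dates (27) were not used (22 of them above 1 FPKM, 0.293% to 0.31% of the column sums). Values were analysed as log2(FPKM + 1) with limma 3.58.1 in R 4.3.3 and figures drawn with Python 3.11.15. No library was rescaled, and the column sums of the 8 libraries were 343661 to 361164. The fit was tested on simulated data with known shifts. Of the tested genes, 12067 matched a RefSeq symbol (GRCm38.p6) and 823 a synonym only. The members and the 38 gene lists were chosen with earlier results of these data known. The text names genes past adjustment, the 12 higher and 12 lower genes of lowest p whose groups do not overlap (some given as examples), the clock genes, and up to 4 members of lowest p of each list described, except items that are not reported here. Alternatives were another pseudocount (0.1), filters, scalings, a fit of 2 groups, no trend, and fits that leave out each mouse.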

Additional observations from a re-analysis of the deposited data

Results flagged for a closer look

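Within the 176 groups of 4 mice formed by the genes named above, 8 held a mouse far from the other mice of its group (the gap to the nearest mouse, divided by the range, was above Dixon's critical value at 95%). Chance gives about 1 in 20 groups, so the count was close to that share, and the mice below are listed as values only. In MPTP, Cry2 was at 42.8 FPKM in M23, against 47.5 to 48.0 FPKM in the other mice, which placed M23 among the MPTP + EX mice. Fgfr3 was at 27.1 FPKM in M6, against 29.6 to 30.0 FPKM, and Psmc4 at 60.9 FPKM in M6, against 64.6 to 65.1 FPKM. Grin2c was at 113 FPKM in M16, against 89.0 to 90.5 FPKM, and Cldn5 at 13.7 FPKM in M21, against 11.6 to 11.9 FPKM. Fasn was at 29.6 FPKM in M6, against 27.02 to 27.3 FPKM in the other MPTP mice. In MPTP + EX, both lipid synthesis genes had E26 highest, Srebf2 at 36.5 FPKM against 32.2 to 32.9 FPKM and Fasn at 26.7 FPKM against 24.3 to 24.6 FPKM. For Dbp, Per2, Gm129 and Fabp7, no mouse stood apart by this measure in MPTP + EX or MPTP. These genes were named for their low p in the same libraries, which favours groups without such a mouse, so this is no independent check of them.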

How the results depend on the processing

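The count of genes at an adjusted p under 0.05, 2 as reported, was 0 in the fit of 2 groups, 1 without E27 and E29 (Dbp), 4 without M16 and S2 (Dbp, Per2, Adamts10 and Il20rb), and 0 to 4 when each mouse was left out in turn. The count at an unadjusted p under 0.05, 746 as reported, was 487 without E27 and E29 and 560 to 1147 when each mouse was left out (1147 without M6). Scaling to a common median turned the split of 424 higher and 322 lower into 355 and 391. Dbp passed under 19 of 21 alternatives and Per2 under 18, with log2 fold changes of -0.67 to -0.55 and -0.68 to -0.54. Of 88 genes named, 3 changed sign under an alternative, none of them called: Pcp2 with quantile normalization (0.039) and without M16 and S2 (0.013), and from -0.13 to 0.013 when each mouse was left out, Slc17a6 without E27 and E29 (0.14) and Neurod2 without E27 and E29 (-0.014). The medians of the blood list (0.19) and of the choroid plexus and ependyma list (-0.31) changed sign without M16 and S2, and the choroid plexus list also without E27 and E29 (-0.14), and those of several lists within 0.05 of 0 did so under 1 or more alternatives. The counts of genes past adjustment that differ between regions were 0 under each alternative run. No paired analysis was possible because MPTP + EX and MPTP were different mice and the columns carry mouse names in place of replicate numbers, while the regions were compared within each mouse. With 4 mice a group and unknown read counts, small differences may not be detectable.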
